A study of Mus musculus with 8 samples.

Results

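Glycolysis and hypoxia response genes were compared between the tissues that flank the mouse embryonic aorta on its dorsal and its ventral side. The set was a list of 37 gene symbols, given by name with no threshold on a measured value: 17 enzymes of glycolysis, 4 transporters of glucose and lactate, 3 regulatory enzymes, 6 regulators of hypoxia-inducible factor (HIF) and 7 HIF target genes. Of the 37, 35 had a row with that symbol in a table of 24675 named genes, and Gpi1 and Eno1 were not analysed here. All embryos were C57Bl/6 at embryonic day 12.5, with no other genotype or treatment given. Dorsal tissue was the strip from the notochord to the aortic roof, and ventral tissue lay beneath the aorta. Each was cut by laser from unfixed 20 µm cryosections of the same embryos and hybridised to Affymetrix mouse Gene 2.0 ST microarrays. There were 4 per tissue, and the labels number them 1 to 4 as biological replicates. How many embryos a replicate holds is not given in the sources used here. If replicates were not separate embryos, the p-values cover technical spread alone.

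Glycolysis splits glucose into pyruvate in the cytosol, and lactate dehydrogenase and the monocarboxylate carriers dispose of pyruvate as lactate. HIF is a pair of an oxygen-labile alpha subunit (Hif1a or Epas1) and the stable Arnt. In oxygen, prolyl hydroxylases of the Egln family mark the alpha subunit and the Vhl ligase destroys it. When oxygen is low, HIF enters the nucleus, binds a short motif and raises transcription of most glycolytic genes and of its own hydroxylases. Control of HIF is thus largely at the level of the protein, which arrays do not measure. Fetal tissues grow at low oxygen, and cartilage precursors and sympathoadrenal cells are known to depend on HIF.

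The HIF motif has the core ACGTG or GCGTG. The promoters printed here show that motif in members that are known HIF targets, and Tpi1 is shown because it had the smallest unadjusted p of the members and no match. They are the 250 bases before the first start listed for each gene, 5′ to 3′ on the gene's strand, from RefSeq on GRCm38.p6, with ACGTG on either strand in capitals.

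Ldha (chr7:46845554-46845803, plus strand): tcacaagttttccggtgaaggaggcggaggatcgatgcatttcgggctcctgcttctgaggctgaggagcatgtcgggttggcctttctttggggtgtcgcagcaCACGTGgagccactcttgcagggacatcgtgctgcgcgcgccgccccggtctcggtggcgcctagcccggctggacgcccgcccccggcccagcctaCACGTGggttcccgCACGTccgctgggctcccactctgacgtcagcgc
Pgk1 (chrX:106186850-106187099, plus strand): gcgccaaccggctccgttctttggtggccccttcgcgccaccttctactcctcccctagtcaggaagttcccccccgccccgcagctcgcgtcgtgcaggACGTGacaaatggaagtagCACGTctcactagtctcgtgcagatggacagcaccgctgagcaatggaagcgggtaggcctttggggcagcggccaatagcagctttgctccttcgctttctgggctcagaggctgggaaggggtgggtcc
Slc2a1 (chr4:119108495-119108744, plus strand): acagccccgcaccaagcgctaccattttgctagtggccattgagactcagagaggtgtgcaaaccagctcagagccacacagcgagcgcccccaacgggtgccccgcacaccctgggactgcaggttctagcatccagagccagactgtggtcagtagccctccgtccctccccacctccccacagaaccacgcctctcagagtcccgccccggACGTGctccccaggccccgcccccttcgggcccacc
Egln3 (chr12:54203875-54204124, minus strand): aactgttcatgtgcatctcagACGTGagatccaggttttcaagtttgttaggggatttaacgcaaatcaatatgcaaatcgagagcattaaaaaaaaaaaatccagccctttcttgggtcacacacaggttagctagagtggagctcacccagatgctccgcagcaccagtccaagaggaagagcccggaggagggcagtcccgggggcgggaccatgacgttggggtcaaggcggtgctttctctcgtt
Bnip3 (chr7:138909507-138909756, minus strand): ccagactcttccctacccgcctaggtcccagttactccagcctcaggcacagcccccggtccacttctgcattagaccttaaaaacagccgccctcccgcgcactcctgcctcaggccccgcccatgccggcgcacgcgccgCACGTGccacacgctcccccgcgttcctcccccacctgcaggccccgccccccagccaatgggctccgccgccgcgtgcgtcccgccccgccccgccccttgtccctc
Tpi1 (chr6:124814159-124814408, minus strand): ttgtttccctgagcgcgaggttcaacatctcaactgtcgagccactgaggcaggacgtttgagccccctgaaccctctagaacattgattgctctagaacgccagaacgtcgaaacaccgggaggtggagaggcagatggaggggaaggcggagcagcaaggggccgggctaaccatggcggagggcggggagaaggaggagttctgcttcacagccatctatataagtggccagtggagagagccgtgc

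In Ldha, 2 of the matches are the palindrome CACGTG, which reads as ACGTG on both strands and is also the E-box bound by other factors. One of these ends 43 bases before the start, and a further match on the opposite strand lies 34 to 30 bases before it. Pgk1 holds 1 match on each strand, from 150 and from 131 bases before the start. Slc2a1 has 1 ACGTG match close to its start (36 bases), Egln3 has 1 far from it (229 bases), and Bnip3 has 1 CACGTG. The other core, GCGTG, is not in capitals. Of the printed genes with 1 promoter window each, Slc2a1 and Bnip3 also held GCGTG, and Pgk1, Egln3 and Tpi1 did not. Promoter windows were found for 34 members, without Slc2a3, Epas1 and Ndrg1. ACGTG stood in a window of 18 of the 34 (52.9%), against 18.5% of 27025 genes with a window. GCGTG, which can overlap ACGTG by an end base, stood in 64.7% against 30.9%, both counted on both strands. Member windows were richer in G and C (median 61.6%, against 52.4% over all windows). Among windows of at least 60% G and C, ACGTG stood in 65.4% of 26 member windows and 23.0% of 9178 windows in all. The list holds known HIF targets, so this is a description, and a match is not a bound site. Of the 25 tested members with a window, the 15 with ACGTG had ventral minus dorsal differences from -0.29 to 0.38 (log2, median 0.06), 9 of them above 0. The 10 without ACGTG ranged from -0.42 to 0.26 (median -0.09), with 1 above 0. All of these but Tpi1 and Vhl held the other core, GCGTG. The split thus does not divide members with a HIF motif from members without one. Over all genes tested, 6112 of 12416 differences were above 0. No single difference among the 25 members passed the test.

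All values are log2 RMA intensities. A probe set's level depends on its probes, so levels are not compared between genes. Gapdh shows why: this enzyme, used by every cell, lay under the array median on all 8 arrays, at 2.23 to 2.67. Several glycolytic genes have processed pseudogenes that can share probe sequence, so their rows may not measure 1 gene alone. Tissue pieces hold several cell types, and fewer cells of a type cannot be told apart from less RNA per cell. Array medians were 3.59 to 3.65, and the tested genes of arrays correlated across genes at 0.907 to 0.957. Dorsal tissue carried its defining markers, with the sclerotome list at 5.98 to 7.11 against 4.66 to 4.92 in ventral tissue. The mean of the splanchnic mesenchyme list stood at 4.86 to 6.17 in ventral against 4.36 to 4.74 in dorsal tissue. Of its 8 genes, 6 had ventral minus dorsal differences above 0 and 2 below, Foxf1 at -0.44 and Nkx2-5 at -2e-04. Dorsal array 4 and ventral array 4 stood apart with fetal liver genes. The mean of 7 such genes was 7.65 and 5.99 there, with all 7 above the array median, and 3.31 to 3.45 on the other 6 arrays.

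None of the members was called different between the tissues. Of the 35, 28 exceeded the array median on 4 or more arrays, the condition for testing. At an adjusted p under 0.05 limma called 0 of 28, beside 0 of 12416 genes tested (0%). At an unadjusted p under 0.05 it counted 0 of 28 members, where 8.26% of all genes tested were counted, with 0 when the replicate number was not fitted as a block (7.99% of all genes). That fit called 4 genes in all (0.0322%) and 0 members. Without replicate number 4, whose arrays stand apart, 0 members were called and 1 of 28, Pfkl, had an unadjusted p under 0.05. Without number 1 there were 3, Egln3, Slc2a1 and Tpi1, and 0 were called. Without number 2 or number 3 there were 0. The share of all genes at that level is not given for these fits, so the counts have no background. On dorsal array 1 the mean of 5 tested neural progenitor genes was 7.36, against 3.69 to 4.40 on the other dorsal arrays. The part of these cells in the counts was not tested. Of the 28 differences, 12 were above and 16 below 0, with a median of -0.01, and over all genes tested the median was -0.0039. The widest was 0.45 (Epas1) and none reached 0.5, a size that 9.3% of all genes reached. For 25 of the 28 the 95% interval lay within 1 log2 unit, that is 2-fold, on either side of 0, as it did for 85.7% of all genes. The 3 others were Pfkp, Epas1 and Higd1a, for which a 2-fold difference lies inside the interval. By comparison, all 10 tested sclerotome and cartilage markers were lower in ventral tissue at an unadjusted p under 0.05, while 0 of them passed at an adjusted p under 0.05.

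**Figure D1:**
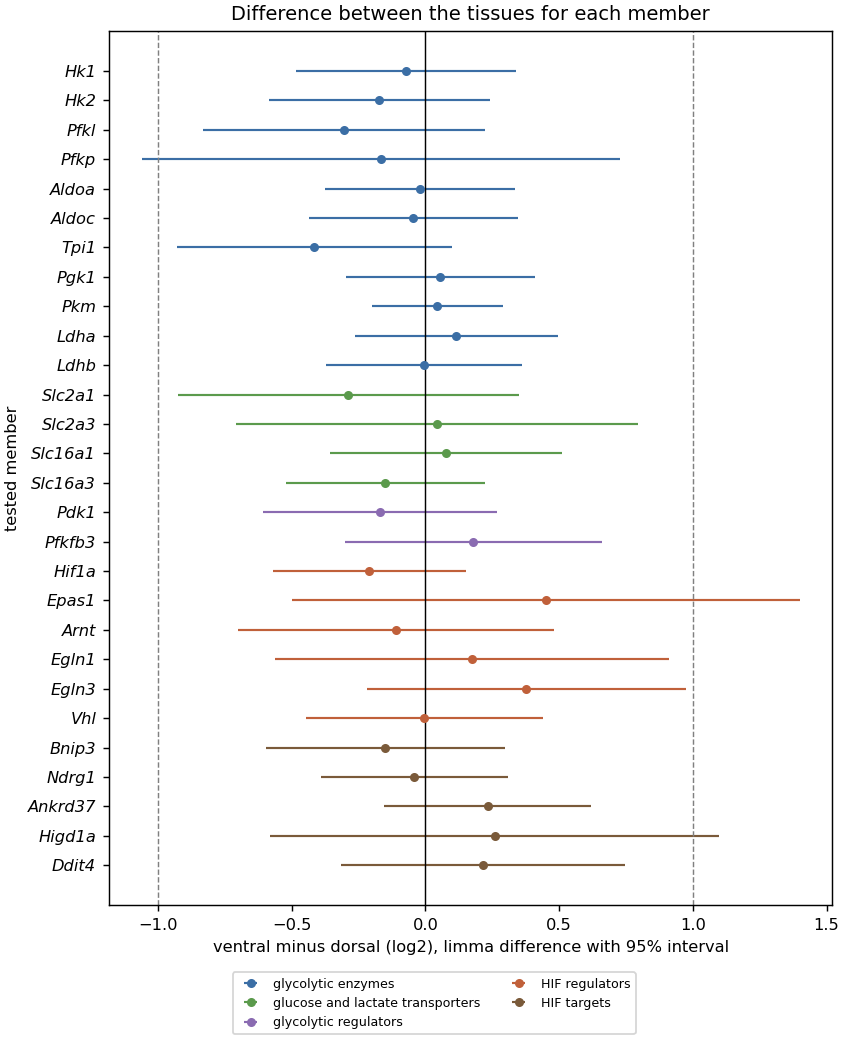
Fitted ventral minus dorsal difference on the log2 scale (x axis) for each of the 28 tested members (y axis), coloured by role, with its 95% interval from limma. Dashed lines stand 1 log2 unit (2-fold) from 0. Every interval crosses 0, and those of Pfkp, Epas1 and Higd1a pass a dashed line.

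Among the 11 tested enzymes of glycolysis, 3 were above and 8 below 0, with a median difference of -0.05 (-0.0039 over all genes, and -0.11 to 0.01 with arrays left out). The smallest unadjusted p of the members belonged to Tpi1, triosephosphate isomerase, which interconverts the 2 products of aldolase. Its values were 6.90, 7.21, 7.13 and 7.87 on dorsal arrays 1 to 4 and 7.08, 6.39, 6.95 and 7.03 on ventral arrays 1 to 4. Dorsal 4 was the highest array and ventral 2 the lowest, and the other 6 overlapped. The difference was -0.42 (SE 0.22, 95% interval -0.93 to 0.10), lower in 3 of 4 replicate numbers (limma adjusted p = 0.699). It was -0.22 without dorsal array 4 and without the block. With replicate number 1 left out it was -0.61, at an unadjusted limma p of 0.029 and an adjusted p of 0.515.

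Phosphofructokinase commits sugar to glycolysis. Its liver-type subunit Pfkl stood at 5.23, 5.39, 5.44 and 5.18 on dorsal arrays 1 to 4 and 4.78, 4.75, 4.93 and 5.56 on ventral arrays 1 to 4. The first 3 ventral arrays lay under all dorsal ones, while ventral 4 was the highest of all 8. The difference was -0.30 (SE 0.22, 95% interval -0.83 to 0.22) (limma adjusted p = 0.783). Without replicate number 4 it was -0.53, with an unadjusted limma p of 0.0377 and an adjusted p of 0.553. The platelet-type subunit Pfkp varied from 3.50 on ventral 2 to 5.28 on dorsal 4, and its replicate numbers disagreed, from -1.47 in number 4 to 0.76 in number 1. The muscle-type subunit Pfkm exceeded the array median on 1 array only and was not tested.

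Hexokinase traps glucose in the cell. Hk2, the inducible form, stood at 4.12, 4.63, 4.61 and 4.16 on dorsal arrays 1 to 4 and 4.18, 4.16, 4.23 and 4.27 on ventral arrays 1 to 4. Dorsal 2 and 3 were the high arrays and the other 6 lay between 4.12 and 4.27. Its difference was -0.17 (SE 0.18, 95% interval -0.59 to 0.24) (limma adjusted p = 0.859). Hk1, the common form, differed by -0.07 (SE 0.17). Neither isozyme's tissues separated.

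Pkm and Pgk1 make the ATP of glycolysis. Pkm, pyruvate kinase, had a dorsal mean of 9.66 ± 0.02 and a ventral mean of 9.71 ± 0.12 (SD, n = 4), with a range of 0.26 over the 8 arrays and the narrowest interval of the members, -0.20 to 0.29. Pgk1, phosphoglycerate kinase, stood at 3.96, 3.99, 4.05 and 3.83 on dorsal arrays 1 to 4 and 3.96, 4.07, 3.85 and 4.17 on ventral arrays 1 to 4. All 8 lay within 0.34, and the tissues overlapped. The difference was 0.06 (SE 0.15, 95% interval -0.30 to 0.41) (limma adjusted p = 0.957). Ldha, the lactate dehydrogenase subunit that HIF raises, stood at 6.36, 6.12, 6.74 and 6.62 on dorsal arrays 1 to 4 and 6.43, 6.39, 6.73 and 6.75 on ventral arrays 1 to 4. The tissues overlapped, with dorsal 2 lowest and ventral 4 highest. The difference was 0.12 (SE 0.16, 95% interval -0.26 to 0.49) (limma adjusted p = 0.905). Without the block it was 0.0029 without dorsal array 2 and 0.21 without dorsal array 3. Ldhb, the subunit more common in oxidative tissue, differed by -0.0047 (SE 0.16, 95% interval -0.37 to 0.36).

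Aldolases split the 6-carbon sugar. Aldoa differed by -0.02 (SE 0.15) and Aldoc by -0.05 (SE 0.17), and Aldoc lay near the array medians (above them on 4 of 8 arrays), which limits its difference. Gapdh, Pgam1 (phosphoglycerate mutase) and Eno2 (the neuronal enolase) lay under the array medians on all 8 arrays and were not tested. Their tissue means were 2.46 and 2.37, 2.63 and 2.80, and 2.96 and 3.04 in dorsal and ventral tissue. Pfkm stood at 3.22 and 3.44.

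The 4 transporters had a median difference of -0.05, with wide spread between replicates. That median was -0.24 without replicate number 1, 0.09 without dorsal array 4 and without the block, and -0.29 under the stricter filter, which left Slc2a1 alone. Slc2a1 (GLUT1), the main glucose carrier of many fetal tissues and of red cells, stood at 7.37, 8.01, 7.77 and 8.69 on dorsal arrays 1 to 4 and 8.08, 7.09, 7.54 and 7.99 on ventral arrays 1 to 4. Dorsal 4 was highest and ventral 2 lowest, and dorsal 1 lay below 3 of the ventral arrays. The difference was -0.29 (SE 0.27, 95% interval -0.93 to 0.35) (limma adjusted p = 0.842), and by number it was 0.71, -0.92, -0.24 and -0.71. Leaving out replicate number 1 gave -0.62, with an unadjusted limma p of 0.0189 and an adjusted p of 0.433. It was -0.04 without dorsal array 4 and without the block. Erythroid markers were highest on the same array: the mean of 8 tested genes was 9.17 on dorsal 4, 7.24 to 7.51 on the other dorsal arrays and 7.31 to 8.15 on ventral arrays. Of the 9 erythroid genes in the table, 7 to 9 were above the median on each array. Their part in the values of Slc2a1 and Tpi1 was not tested.

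Slc2a3 (GLUT3), a high-affinity glucose carrier, was 4.97 on dorsal 4 and 5.25 on ventral 1, and 3.84 to 4.22 on the other 6 arrays. Its difference was 0.04 (SE 0.32, 95% interval -0.71 to 0.80), which became -0.37 without replicate number 1 and 0.31 without number 4. Slc16a3 (MCT4), the lactate exporter that HIF raises, stood at 3.91, 4.00, 3.73 and 3.81 on dorsal arrays 1 to 4 and 3.67, 3.51, 3.65 and 4.03 on ventral arrays 1 to 4. Ventral 4 was the highest array and the first 3 ventral arrays lay under all dorsal ones. The difference was -0.15 (SE 0.16, 95% interval -0.52 to 0.22) (limma adjusted p = 0.868). It was -0.034 without replicate number 2 and -0.27 without number 4. Slc16a1 (MCT1), which carries lactate both ways, differed by 0.08 (SE 0.18) and was above the median on 4 of 8 arrays.

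**Figure D2:**
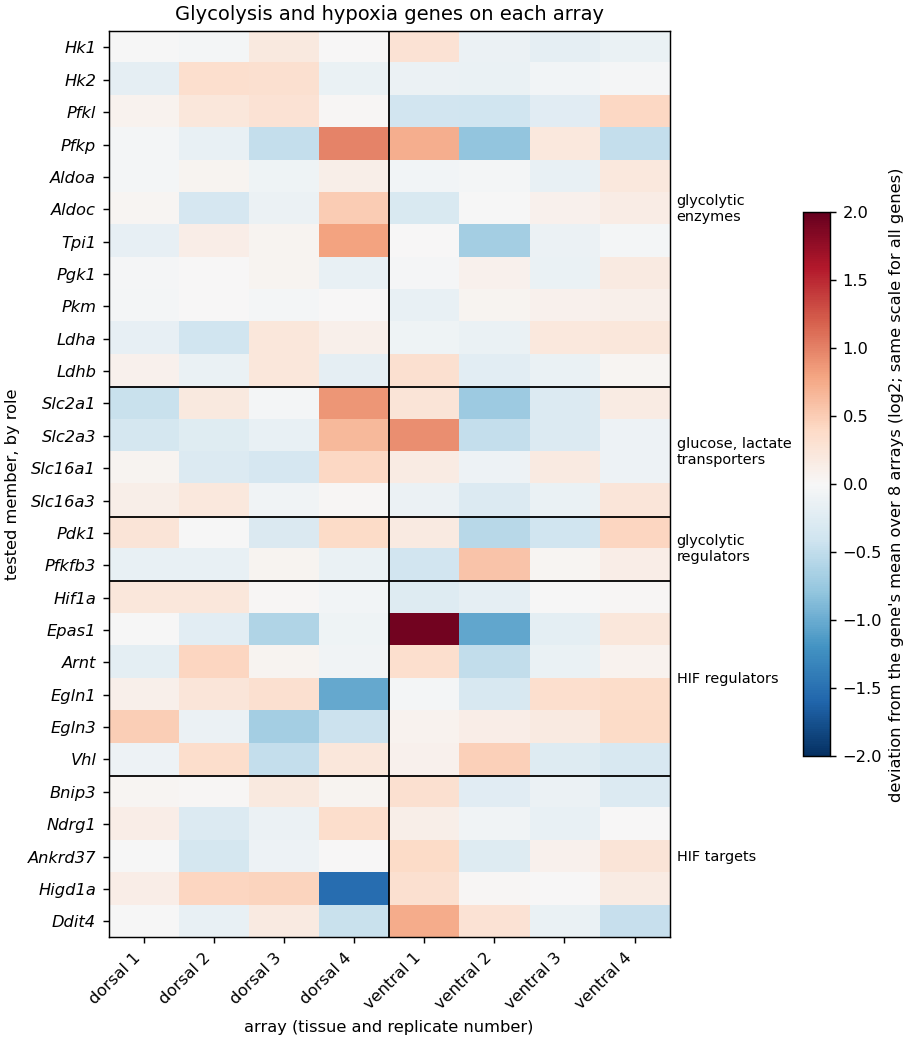
Deviation of each tested member (rows, by role) on each array (columns) from its own mean over the 8 arrays, in log2 units, red higher and blue lower. The strongest colours are Epas1 on ventral 1 (high) and ventral 2 (low) and Higd1a and Egln1 on dorsal 4 (low), and no block of rows changes colour at the line between the tissues.

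The regulatory enzymes set the rate of glycolysis and the fate of pyruvate. Pdk1 shuts pyruvate out of the mitochondrion by blocking pyruvate dehydrogenase, and stood at 5.85, 5.57, 5.30 and 5.96 on dorsal arrays 1 to 4 and 5.77, 5.03, 5.20 and 6.01 on ventral arrays 1 to 4. Ventral 4 and dorsal 4 were highest and ventral 2 and 3 lowest. The difference was -0.17 (SE 0.19, 95% interval -0.61 to 0.27) (limma adjusted p = 0.872). Without the block it was -0.014 without ventral array 2 and -0.34 without ventral array 4. Pfkfb3 makes the activator of phosphofructokinase, and stood at 4.42, 4.42, 4.62 and 4.43 on dorsal arrays 1 to 4 and 4.17, 5.13, 4.61 and 4.69 on ventral arrays 1 to 4. Ventral 1 was lowest and ventral 2 highest, so the dorsal values lay inside the ventral range. The difference was 0.18 (SE 0.20, 95% interval -0.30 to 0.66) (limma adjusted p = 0.884), and 0.00 without replicate number 2. Pfkfb4, of the same family, lay under the median on all arrays (2.93 to 3.53).

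Among the HIF regulators, 3 differences were above and 3 below 0, with a median of 0.09. The sign of that median was not stable: it was -0.07 without ventral array 1 and without the block, 0.29 without replicate number 2, and -0.11 under the stricter filter, which left 3 of the genes. Hif1a stood at 8.60, 8.61, 8.39 and 8.32 on dorsal arrays 1 to 4 and 8.12, 8.20, 8.37 and 8.40 on ventral arrays 1 to 4. Dorsal 1 and 2 were highest and ventral 1 and 2 lowest, and numbers 3 and 4 lay close together in both tissues. The difference was -0.21 (SE 0.15, 95% interval -0.57 to 0.15) (limma adjusted p = 0.783), so a decrease or increase of 2-fold lies outside the interval. Arnt, its partner, differed by -0.11 (SE 0.25, 95% interval -0.70 to 0.48) and Vhl by -0.0040 (SE 0.19, 95% interval -0.45 to 0.44). Vhl stood at 4.20, 4.66, 3.83 and 4.53 on dorsal arrays 1 to 4 and 4.39, 4.78, 4.05 and 3.98 on ventral arrays 1 to 4, and its tissues overlapped over most of their range.

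Epas1, the HIF alpha subunit of endothelium and sympathoadrenal cells, stood at 4.84, 4.64, 4.25 and 4.76 on dorsal arrays 1 to 4 and 6.77, 3.80, 4.65 and 5.08 on ventral arrays 1 to 4. Ventral 1 was far above every other array, and ventral 2 was the lowest. The difference was 0.45 (SE 0.40, 95% interval -0.50 to 1.40) (limma adjusted p = 0.833), and -0.12 without ventral array 1 and without the block. Ventral 1 was also the array with the most signal of sympathoadrenal genes: the mean of 8 tested genes was 7.30 there, 4.40 to 6.13 on the other ventral arrays and 4.38 to 4.95 on dorsal arrays, and all 9 genes in the table were above the median on that array. On ventral 3, second in that list at 6.13, Epas1 was 4.65. The endothelial list was 5.68 on ventral 1 and 4.53 to 5.92 on the other arrays. The part of these cells in the Epas1 value was not tested.

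The hydroxylases Egln1 and Egln3 are the oxygen sensors, and Egln3 is itself a HIF target. Egln3 stood at 5.40, 4.79, 4.23 and 4.48 on dorsal arrays 1 to 4 and 4.98, 5.04, 5.10 and 5.29 on ventral arrays 1 to 4. The 4 ventral arrays lay close together, and dorsal 1 was above them while the other 3 dorsal arrays were below. The difference was 0.38 (SE 0.25, 95% interval -0.22 to 0.97), higher in 3 of 4 replicate numbers (limma adjusted p = 0.771). Without replicate number 1 it was 0.64, with an unadjusted limma p of 0.0267 and an adjusted p of 0.5. Egln1 was 5.84 on dorsal 4 and 6.55 to 7.23 on the other 7 arrays. Its difference of 0.17 (SE 0.31, 95% interval -0.56 to 0.91) became -0.23 without replicate number 4.

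**Figure D3:**
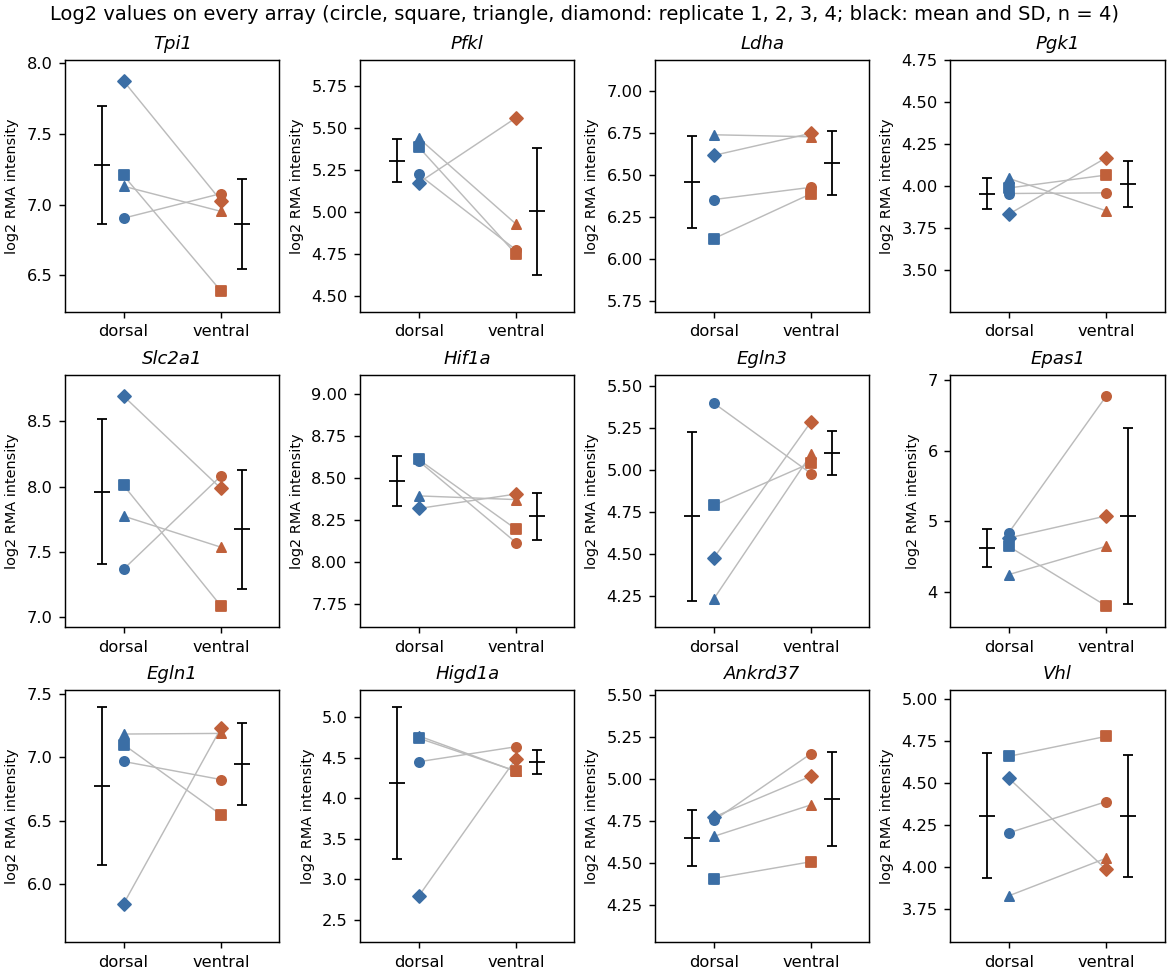
Log2 RMA intensity (y axis) on each dorsal (blue) and ventral (orange) array for 12 members, with grey lines joining arrays of 1 replicate number, marker shapes for numbers 1 to 4, and the mean and SD (n = 4) in black. Each panel has its own axis. The tissues overlap in every panel, and for Ankrd37 all 4 lines rise from dorsal to ventral.

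Of the 5 tested HIF targets, 3 differences were above and 2 below 0, with a median of 0.21. That median was 0.0034 without ventral array 1 and without the block, and 0.032 under the stricter filter, which left 2 of the genes. Ankrd37, a small ankyrin repeat protein induced by HIF, stood at 4.75, 4.41, 4.66 and 4.78 on dorsal arrays 1 to 4 and 5.15, 4.51, 4.85 and 5.02 on ventral arrays 1 to 4. Ventral was higher in each of the 4 replicate numbers, by 0.10 to 0.40, while ventral 2 lay below 3 of the dorsal arrays. It was the only member with 1 direction in 4 of 4 numbers (7.93% of all genes tested were higher in 4 of 4, and 8.46% lower). The difference was 0.23 (SE 0.16, 95% interval -0.15 to 0.62) (limma adjusted p = 0.781). The dorsal and ventral values did not overlap in 0 of the 28 members, and in 4.39% of all genes tested.

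Ddit4 (REDD1), which restrains mTOR under stress, stood at 5.84, 5.70, 6.04 and 5.41 on dorsal arrays 1 to 4 and 6.59, 6.14, 5.72 and 5.39 on ventral arrays 1 to 4. Ventral 1 and 2 were the highest, and ventral 4 and dorsal 4 the lowest. The difference was 0.21 (SE 0.23, 95% interval -0.32 to 0.74) (limma adjusted p = 0.868), and 0.00 without ventral array 1 and without the block. Bnip3, which tags mitochondria for removal, differed by -0.15 (SE 0.19, 95% interval -0.60 to 0.30), and Ndrg1, a stress-induced cytoplasmic protein, by -0.04 (SE 0.15, 95% interval -0.39 to 0.31). Higd1a, a mitochondrial inner membrane protein, was 2.79 on dorsal 4 and 4.33 to 4.77 on the other 7 arrays. Its difference was 0.26 (SE 0.36, 95% interval -0.58 to 1.10), and -0.22 without replicate number 4. Dorsal 4 was the array with the most fetal liver signal, given above. Ventral 4 also had that signal, and there Higd1a was 4.49 and Egln1 7.23. The part of these cells in either value was not tested.

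Car9, a membrane carbonic anhydrase that is among the most HIF-dependent genes, lay under the array medians throughout. It stood at 2.65, 2.77, 2.69 and 3.27 on dorsal arrays 1 to 4 and 2.83, 3.16, 2.58 and 2.72 on ventral arrays 1 to 4, with dorsal 4 and ventral 2 highest. Adm, the vasodilator peptide adrenomedullin, exceeded the median only on ventral 1, where it was 4.00, and lay between 2.66 and 3.58 on the other 7 arrays. Neither was tested, and values so low limit the size of any difference. In a fit of all named rows the 7 untested members had differences from -0.10 (Gapdh) to 0.29 (Adm), with unadjusted limma p of 0.173 or more.

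**Figure D4:**
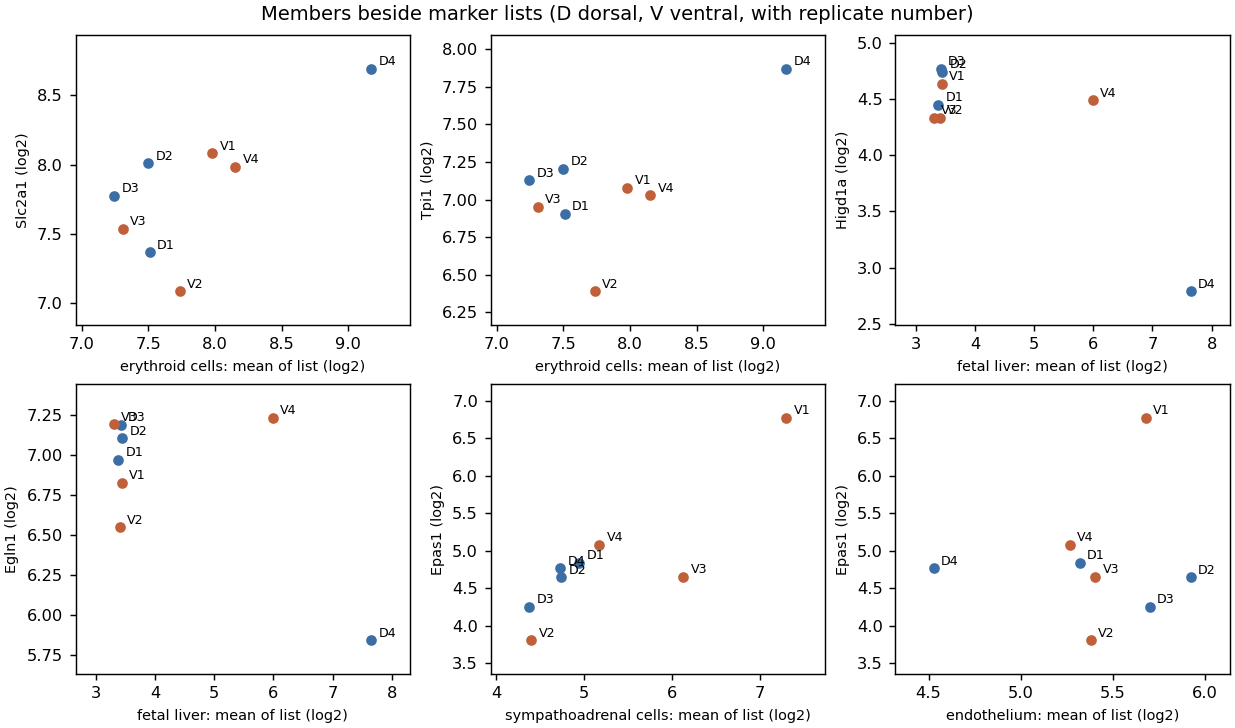
Log2 value of a member (y axis) against the mean log2 value of a marker list (x axis) on the same array, for Slc2a1, Tpi1, Higd1a, Egln1 and Epas1, with dorsal arrays in blue (D) and ventral in orange (V) and the replicate number beside each point. By list mean, D4 stands apart in the erythroid panels, D4 and V4 in the fetal liver panels, and V1 in the sympathoadrenal panel. V4 is not low for Higd1a (4.49) or Egln1 (7.23).

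By array, the highest values of members lay on 7 of the 8 arrays and the lowest on all 8, in unequal numbers. Ventral 4 held the highest value of 8 of the 28, ventral 1 of 7 and dorsal 4 of 6, where 12.2%, 11.6% and 14.5% of all genes tested had theirs. Ventral 2 held the lowest value of 10 of the 28, among them Tpi1, Slc2a1, Pdk1, Epas1 and Arnt, where 15.8% of all genes had their lowest. The median member deviated by -0.16 on ventral 2 and -0.12 on ventral 3, and by 0.10 on ventral 1 and 0.12 on ventral 4, all within ventral tissue. On the 4 dorsal arrays this median over all members stayed between -0.01 and 0.01, but single roles moved more. The transporters were at 0.53 on dorsal 4, and the HIF regulators at 0.24 on dorsal 2 and -0.23 on dorsal 3. The enzymes stayed between -0.03 and 0.06 on dorsal arrays. The medians of all genes lay between -0.03 and 0.01 on every array. The SD within a tissue had a median of 0.28 over members and over all genes tested, from 0.09 to 0.90 among members.

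Genes of the same pathways that are not on the member list were also compared. Of 106 with a named row, 77 were tested and 0 were called, with 2 higher and 2 lower in ventral tissue at an unadjusted p under 0.05 (4.08% and 4.18% of all genes). Among 30 tested further HIF targets, 1 was higher and 2 were lower at that level, and the median difference was -0.02. The 3 taken by smallest p were Plod2, Igfbp3 and Vegfa.

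Plod2, the lysyl hydroxylase that prepares collagen for cross-linking and a HIF target, stood at 7.14, 8.29, 8.49 and 8.38 on dorsal arrays 1 to 4 and 6.55, 6.91, 6.25 and 5.94 on ventral arrays 1 to 4. Every ventral array was below every dorsal array. The difference was -1.66 (SE 0.31, 95% interval -2.39 to -0.93), a ratio of 0.316, with an adjusted p of 0.211 (limma). It was -1.97 without dorsal array 1, the dorsal array nearest to the ventral values, and without the block. The adjusted limma p of 0.0288 in that fit was the smallest of 20 alternatives. Leaving out the dorsal array nearest to the ventral values widens the difference by arithmetic, so that fit adds no support. The cartilage markers were also lower in ventral tissue, as given above, and their part in this was not tested. Igfbp3, a binding protein of insulin-like growth factors, stood at 7.52, 8.49, 6.97 and 5.92 on dorsal arrays 1 to 4 and 9.11, 8.81, 8.19 and 8.81 on ventral arrays 1 to 4. Dorsal 2 reached into the ventral range and dorsal 4 was far lower. The difference was 1.51 (SE 0.37, 95% interval 0.63 to 2.38), with an adjusted p of 0.311 (limma), and 1.04 without replicate number 4.

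Vegfa, the angiogenic factor that HIF controls, stood at 5.93, 5.97, 6.18 and 5.99 on dorsal arrays 1 to 4 and 5.53, 5.79, 5.54 and 5.48 on ventral arrays 1 to 4. All ventral values lay under all dorsal values, with gaps of 0.18 to 0.64 within replicate numbers. The difference was -0.43 (SE 0.18, 95% interval -0.85 to -0.02), with an adjusted p of 0.589 (limma). Vegfa, Plod2 and Dlat were the 3 of the 77 whose tissues did not overlap, beside 4.39% of all genes tested.

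In the list of pyruvate entry to mitochondria, with 9 genes tested, 1 was higher and 0 lower at an unadjusted p under 0.05. That gene, Dlat, is the acetyltransferase core of pyruvate dehydrogenase and stood at 5.03, 5.16, 5.28 and 5.04 on dorsal arrays 1 to 4 and 5.80, 5.74, 5.84 and 6.20 on ventral arrays 1 to 4. All ventral arrays were above all dorsal ones, and the difference was 0.77 (SE 0.19, 95% interval 0.33 to 1.22) with an adjusted p of 0.311 (limma). The kinase Pdk3 differed by -0.38 (SE 0.26) and the E1 beta subunit Pdhb by 0.28 (SE 0.21).

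None of the other lists had a gene at an unadjusted p under 0.05. Among 13 tested HIF pathway regulators 9 were above 0. The 3 of smallest p were the ubiquitin ligase Siah1a at 0.35 (SE 0.16), the third alpha subunit Hif3a at 0.40 (SE 0.18) and elongin C (Eloc), a part of the Vhl ligase, at 0.47 (SE 0.22). Of 6 further sugar and lactate transporters the smallest p belonged to Slc2a13, a myo-inositol carrier, at -0.84 (SE 0.38), or -0.34 without replicate number 2. Slc16a8 differed by 0.25 (SE 0.16) and Slc2a6 by -0.12 (SE 0.14). Of 5 further glycolytic isozymes, Pgam2 differed by -0.33 (SE 0.17), Eno3 by 0.30 (SE 0.21) and Adpgk by 0.23 (SE 0.16). Of 15 genes of side branches and gluconeogenesis, mitochondrial Pck2 differed by 0.35 (SE 0.16), Rpe by -0.36 (SE 0.23) and Pgm1 by 0.36 (SE 0.27). Without replicate number 1 Rpe was -0.15 and Pgm1 0.078, and Pgm1 was 0.63 without number 2. With arrays left out, Siah1a ranged from 0.15 to 0.44, Hif3a from 0.24 to 0.65, Eloc from 0.24 to 0.65, Pdk3 from -0.70 to -0.24, Pdhb from 0.16 to 0.54, Slc16a8 from 0.15 to 0.38, Slc2a6 from -0.18 to -0.03, Pgam2 from -0.47 to -0.19, Eno3 from 0.14 to 0.49, Adpgk from 0.14 to 0.29 and Pck2 from 0.24 to 0.49.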

How the data were processed

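The series matrix held 1 log2 value per row and array for 8 arrays. Per the submitters' processing notes, these deposited log2 values were made by the authors in Expression Console (Affymetrix) by RMA, a method that corrects background, equalises the arrays and summarises probes. No version is given in the sources used here. Per the labels' protocols, 200 to 1000 pg of total RNA was amplified before labelling, which can add spread, most of all in weak genes. Because RMA equalises arrays, differences are relative ones and say nothing of total RNA.

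Of 25429 rows, 24675 had 1 gene symbol in the platform table, 0 several and 754 none. Symbols were updated by Entrez number through RefSeq (GRCm38.p6), and 0 members changed name. Genes exceeding the array median on 4 or more arrays (12416, 50.3% of the named) were tested with limma 3.58.1 in R 4.3.3 (lmFit, eBayes with trend and robust) for ventral minus dorsal, two-sided, with replicate number fitted as a fixed block, and Benjamini-Hochberg adjustment over all genes tested, at a threshold of 0.05. The fit was tested on simulated data. Intervals are 95% intervals of the moderated fit. The sources used here give no slide or scan batch. The number of arrays limits the precision.

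The labels say both tissues came from the same embryos but not that a number marks 1 embryo. Deviations from tissue means of same-numbered arrays correlated across genes at 0.11, 0.03, 0.02 and 0.12, against -0.13 to 0.10 for other pairs. Both arrays numbered 4 had the fetal liver signal (means of 7.65 and 5.99, and 3.31 to 3.45 elsewhere). Neuron genes were high on dorsal 1 and ventral 1 (7.87 and 7.44), but also on ventral 3 (7.11) and not on dorsal 3 (5.47). Whether the numbers pair embryos was not tested, and the fit without the block stands beside the fit with it.

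Values on every array are given for the 12 tested members of smallest unadjusted p and for Hif1a, Epas1, Slc2a1, Ldha, Pgk1, Vhl and Car9. Of each pathway list up to 3 genes of smallest p are named. Higd1a, Egln1, Slc2a3, Pfkp and Adm were singled out after their values were seen. Members and lists were chosen with earlier results of these data known. Alternatives were no block, a random block, 2 other filters, 2 rescalings, plain eBayes, array weights and leaving out arrays.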

Additional observations from a re-analysis of the deposited data

Results flagged for a closer look

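Within a tissue, single arrays stood apart for 6 of the 70 member groups checked (35 members in 2 tissues), where the gap to the nearest array, as a share of the group's range, passed Dixon's 95% critical value. Chance alone gives about 1 in 20 such groups, and 6 of 70 should be read beside that. Dorsal 4 was far below the other dorsal arrays for Higd1a, at 2.79 against 4.45 for the nearest, and for Egln1, at 5.84 against 6.97. Ventral 1 was above the other ventral arrays for Hk1, at 4.67 against 4.27, and for Gapdh, at 2.67 against 2.29, where both are under the array median. Dorsal 3 was the highest dorsal array for Pfkfb3, at 4.62 against 4.43, and for Bnip3, at 5.81 against 5.67.

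By the same rule, the erythroid list stood apart on dorsal 4 and the fetal liver list on both arrays numbered 4. The erythroid mean on dorsal 4 was 9.17, with 7.51 on the nearest dorsal array. The fetal liver mean was 7.65 on dorsal 4, with 3.44 on the nearest, and 5.99 on ventral 4, with 3.43 on the nearest. Neural lists were uneven on other arrays. The mean of 5 tested neural progenitor genes was 7.36 on dorsal 1, and 3.69 to 4.40 on the other dorsal arrays. The mean of 8 tested neuron genes was 7.87 on dorsal 1, 7.44 on ventral 1 and 7.11 on ventral 3. It was 5.10 to 6.04 on the remaining arrays. The part of any of these cells in the member values was not tested.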

How the results depend on the processing

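Of 544 recomputed member differences 500 kept their sign, 44 changed it and 0 were called (limma adjusted p of 0.433 or more). The changes came in 15 of the 28 members, and their cause was not tested. With 1 replicate number left out, differences (log2) ranged as follows: Hk1 -0.20 to 0.030, Pfkp -0.48 to 0.27, Aldoa -0.058 to 0.0065, Aldoc -0.17 to 0.063, Pgk1 -0.037 to 0.14, Ldhb -0.081 to 0.12, Slc2a3 -0.37 to 0.31, Slc16a1 -0.074 to 0.27, Epas1 -0.043 to 0.88, Arnt -0.32 to 0.16, Egln1 -0.23 to 0.42, Vhl -0.080 to 0.18, Ndrg1 -0.12 to 0.055, Higd1a -0.22 to 0.49. With 1 array left out and no replicate block, these changed sign. Without dorsal 4: Pfkp 0.14, Aldoa 0.013, Aldoc 0.12, Egln1 -0.14, Vhl 0.070, Ndrg1 0.067 and Higd1a -0.21. Without ventral 2: Pfkp 0.070, Ldhb 0.067 and Arnt 0.035. Without ventral 3: Aldoa 0.027, Ldhb 0.041 and Vhl 0.079. Without ventral 1: Aldoc 0.050, Slc2a3 -0.26 and Epas1 -0.12. Without dorsal 1: Ldhb 0.025 and Slc2a3 -0.068. Without dorsal 3: Ldhb 0.071 and Slc16a1 -0.025. Without dorsal 2: Slc2a3 -0.028, Slc16a1 -0.0021, Arnt 0.016 and Vhl 0.11. Without ventral 4: Vhl 0.10. With quantile scaling Pkm was -0.034 and Vhl 0.0045, and Vhl was 0.028 with array weights.

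Over all genes limma called 0 with the replicate block, 4 with no replicate block, 10 with the stricter filter, and 4 where the block was a random term. It called 0 to 9 with 1 number left out, and without the block 8 without dorsal 1, 9 without dorsal 4 and 20 without ventral 1. Members at an unadjusted p under 0.05 numbered 0 to 3 with 1 number left out, and 1 each without dorsal 1 or ventral 4 and without the block. The share of all genes at that level is not given for these fits. The stricter filter left 1 tested regulatory enzyme, Pdk1, at -0.17. The replicate block changed no member's call. With arrays left out, members that kept their sign also moved by over 1.5 times, among them Hk2 (-0.27 to -0.071), Hif1a (-0.31 to -0.12), Bnip3 (-0.29 to -0.083), Ankrd37 (0.14 to 0.36) and Pfkfb3 (0.0010 to 0.34). Interval half-widths of 0.25 to 0.95 limit what could be detected with 4 arrays a tissue. The 7 members that exceeded the array median on fewer than 4 arrays were not tested.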
